A study of Mus musculus with 18 samples.

Results

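The MHC class I antigen presentation genes were followed here as 10 genes chosen by symbol, out of the 24421 genes in the deposited count table: H2-K1, H2-D1, B2m, Tap1, Tap2, Tapbp, Psmb8, Psmb9, Psmb10 and Nlrc5. All 10 passed the filter on low counts and were tested among 13507 genes. Class I molecules carry peptides made inside the cell to its surface, where CD8+ T cells read them. The peptides are cut by the proteasome, pumped into the endoplasmic reticulum by the TAP transporter, and loaded onto a heavy chain paired with beta-2-microglobulin, with tapasin as the loading chaperone. Interferons raise many of these genes together, and loss of them is a known route by which tumor cells escape T cells.

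The parental cells, 4T1, are a line from a mammary carcinoma of the mouse, labelled as wild type and of strain BALB/cfC3H. They were compared with 2 populations selected from them, 4T1R1 and 4T1R2. Both populations had survived 3 rounds of 48 h in 1.5 μM 17-DMAG, an inhibitor of the chaperone Hsp90, and each is 1 selected population, so a difference between them and 4T1 has no replicate of the selection itself. Each was sequenced untreated and after 1.5 μM 17-DMAG, which gives 6 groups of 3 libraries of rRNA-depleted total RNA. The sample labels give 48 h for this last exposure and the design text gives 2 h, so its length is not settled here.

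Total counts were 23354461 to 55094630 per library. In treated 4T1, the first and second replicate were more alike than any other pair of one group. Their chi-square per gene was 1.10, against 2.04 to 2.22 in the 17 other pairs, and the reason was not tested. They were averaged and counted as 1 sample, which leaves n = 2 in that group and 17 libraries in the fit. The names of all 6 4T1R1 libraries share 1 prefix and those of the other 12 share another, and the labels do not say what the prefix stands for. Differences between 4T1R1 and the other populations cannot be told apart from differences that go with the prefix. The comparison of 4T1R2 with 4T1 and each response to 17-DMAG lie within 1 prefix. The study calls its RNA-seq replicates biological triplicates, but the labels do not say that they came from separate cultures, so p-values measure the spread between libraries, which may be technical. The 7 epithelial markers summed to 62040 to 62840 normalized counts in untreated 4T1, 43050 to 44930 in 4T1R1 and 48930 to 49740 in 4T1R2. Of the 6 tested, 4 were lower and 1 higher in 4T1R1, and 3 were lower and 2 higher in 4T1R2. Among those with lower means in 4T1R1 were Krt18 (14180 against 24630 normalized counts), Krt8 (16280 against 23570) and Epcam (757.5 against 1521). The log2 changes of the 6 ran from −1.01 to 0.59 in 4T1R1 and from −0.67 to 1.36 in 4T1R2. Krt5 was at 0 in all 3 untreated groups. The 8 leukocyte markers summed to 145 to 204.8 in untreated 4T1, 231.5 to 236.8 in 4T1R1 and 221.5 to 258.2 in 4T1R2, most of it Cd68, with Adgre1 at 0 in the untreated groups and Ptprc at 14.9, 5.8 and 10.2 in untreated 4T1, 4T1R1 and 4T1R2. The 6 fibroblast markers summed to 690.3 to 770.6, 841.9 to 895.2 and 919.8 to 1043 in the same groups, without overlap, with the group means of Dcn and Col3a1 under 1, and of the 3 tested 2 were higher in 4T1R1 and 1 in 4T1R2. Of all genes tested, 25.2% were higher and 27.5% lower in untreated 4T1R1, and 25.6% higher and 26.9% lower in untreated 4T1R2. The part of these markers' shifts in the results was not tested. In bulk RNA, fewer cells of a type and less RNA per cell cannot be told apart.

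Levels are given as normalized read counts, which are counts divided by the effective library size (total count times the TMM factor) and scaled to the mean effective size. Levels per kb use the union of exons in GENCODE vM21, while the study counted reads on a UCSC annotation. Comparisons of different genes per kb are therefore approximate. Changes are log2 fold changes with their standard errors (SE) from edgeR's quasi-likelihood test over all 13507 genes. A gene was called higher or lower where the Benjamini-Hochberg adjusted p was under 0.05.

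Of the 10 genes, 7 lie in the MHC region of chromosome 17 (GRCm38, GENCODE vM21), among them H2-K1 at chr17:33996017-34000347, H2-D1 at chr17:35262730-35267499, and the neighbours Psmb9 (chr17:34181987-34187764), Tap1 (chr17:34187553-34197225), Psmb8 (chr17:34197721-34201454) and Tap2 (chr17:34203527-34216321). B2m is on chromosome 2 (chr2:122147686-122153083), and Psmb10 (chr8:105935735-105938444) and Nlrc5 (chr8:94434356-94527272) are on chromosome 8. Psmb9 and Tap1 are read from opposite strands and their exons overlap by 212 bp at their starts, so that reads from this stretch can belong to either gene unless counting used strand, which the sources used here do not give. Exons of Tapbp and Zbtb22 share 149 bp on the same strand.

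The bases before the start of 4 of the genes are printed, all of which hold both patterns marked below. Nlrc5, one of the 10, is a transactivator that acts through the conserved X and Y boxes of class I promoters. Whether Nlrc5 or these boxes had a part in the changes was not tested. Psmb8, which is not printed and holds neither pattern, had a Pearson r of 0.979 with H2-K1 over the 17 libraries. H2-K1 has a pair of RefSeq starts, and the upstream one is shown. Each sequence is the 250 bases before the RefSeq start (GRCm38.p6), 5′ to 3′ on the strand of the gene, and capitals mark CCAAT (the NF-Y or Y box) and TGACG (the core of a CREB/ATF site, part of the X box) in either orientation. The Tap1 stretch also holds the start of Psmb9 on the other strand.

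H2-K1 promoter (chr17:34000348-34000597, - strand): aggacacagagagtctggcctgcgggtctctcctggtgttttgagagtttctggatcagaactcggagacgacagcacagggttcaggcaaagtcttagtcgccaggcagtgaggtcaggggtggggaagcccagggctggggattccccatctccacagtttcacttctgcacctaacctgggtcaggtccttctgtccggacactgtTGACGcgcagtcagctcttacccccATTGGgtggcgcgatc
H2-D1 promoter (chr17:35262844-35263093, + strand): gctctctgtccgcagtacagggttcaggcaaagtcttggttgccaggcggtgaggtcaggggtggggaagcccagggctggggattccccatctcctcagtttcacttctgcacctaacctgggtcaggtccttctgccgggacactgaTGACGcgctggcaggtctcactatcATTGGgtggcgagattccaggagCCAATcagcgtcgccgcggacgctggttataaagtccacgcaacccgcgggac
B2m promoter (chr2:122147437-122147686, + strand): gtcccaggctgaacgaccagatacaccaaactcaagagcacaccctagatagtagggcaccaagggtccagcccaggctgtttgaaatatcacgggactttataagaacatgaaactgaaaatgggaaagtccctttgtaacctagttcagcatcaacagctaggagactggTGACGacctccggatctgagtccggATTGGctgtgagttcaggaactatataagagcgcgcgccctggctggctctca
Tap1 promoter (chr17:34187306-34187555, + strand): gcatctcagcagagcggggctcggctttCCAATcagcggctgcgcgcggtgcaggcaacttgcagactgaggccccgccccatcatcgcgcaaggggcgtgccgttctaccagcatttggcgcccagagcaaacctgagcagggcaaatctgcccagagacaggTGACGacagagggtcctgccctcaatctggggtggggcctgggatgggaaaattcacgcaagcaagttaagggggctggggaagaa

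In H2-K1, H2-D1 and B2m, a TGACG was followed by a CCAAT box in reverse orientation (ATTGG), with 20 bases between them in each of the 3 genes. Of all 32851 RefSeq promoters, 33.8% held CCAAT, 17.8% held TGACG and 2.75% held both within 30 bases of each other. Promoters were given for 8 of the 10 genes, and for none of Tap2 and Nlrc5. CCAAT was found in 6 of the 8 (all but Psmb8 and Psmb10) and TGACG in 5 (H2-K1, H2-D1, B2m, Psmb9 and Tap1). A strict pattern of the interferon-stimulated response element (GAAA, any 2 bases, GAAA) was found in B2m (2.98% of all promoters). The gamma-activated site TTCNNNGAA was found in Psmb8 (7.02%). The loose NF-κB pattern (GGG, any 5 bases, CC) was found in H2-K1, H2-D1, B2m, Psmb9 and Tap1 (45.8%). The heat shock element (GAA, any 2 bases, TTC, any 2 bases, GAA) was in none of the 8 (0.466% of all promoters). Both strands were searched, none of these letter patterns contains another, and a match is a description of the sequence, not a mapped site. A promoter without a match may still hold a variant of the site, since only exact letters were searched. The reference is of C57BL/6, whose MHC haplotype differs from that of BALB/c, so these letters may differ from those in 4T1.

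The untreated groups were compared first, to see how the genes differed between the resistant populations and the line they came from, without drug. In untreated 4T1R1, 9 of the 10 genes were higher than in untreated 4T1 and none was lower, from 1.43-fold for Tapbp to 4.08-fold for Psmb9. In untreated 4T1R2, 7 of the 10 were higher and none was lower, with smaller changes, from 1.07-fold for H2-K1 to 1.94-fold for Psmb9. Psmb10 was called in neither, and Nlrc5 and Tap2 were higher only in 4T1R1, where they also exceeded 4T1R2. Over all genes tested, 25.2% were called higher and 27.5% lower in 4T1R1, and 25.6% higher and 26.9% lower in 4T1R2. No member was lower in either comparison at an unadjusted p under 0.05 by edgeR, and DESeq2 called 0 lower in both.

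**Figure D1:**
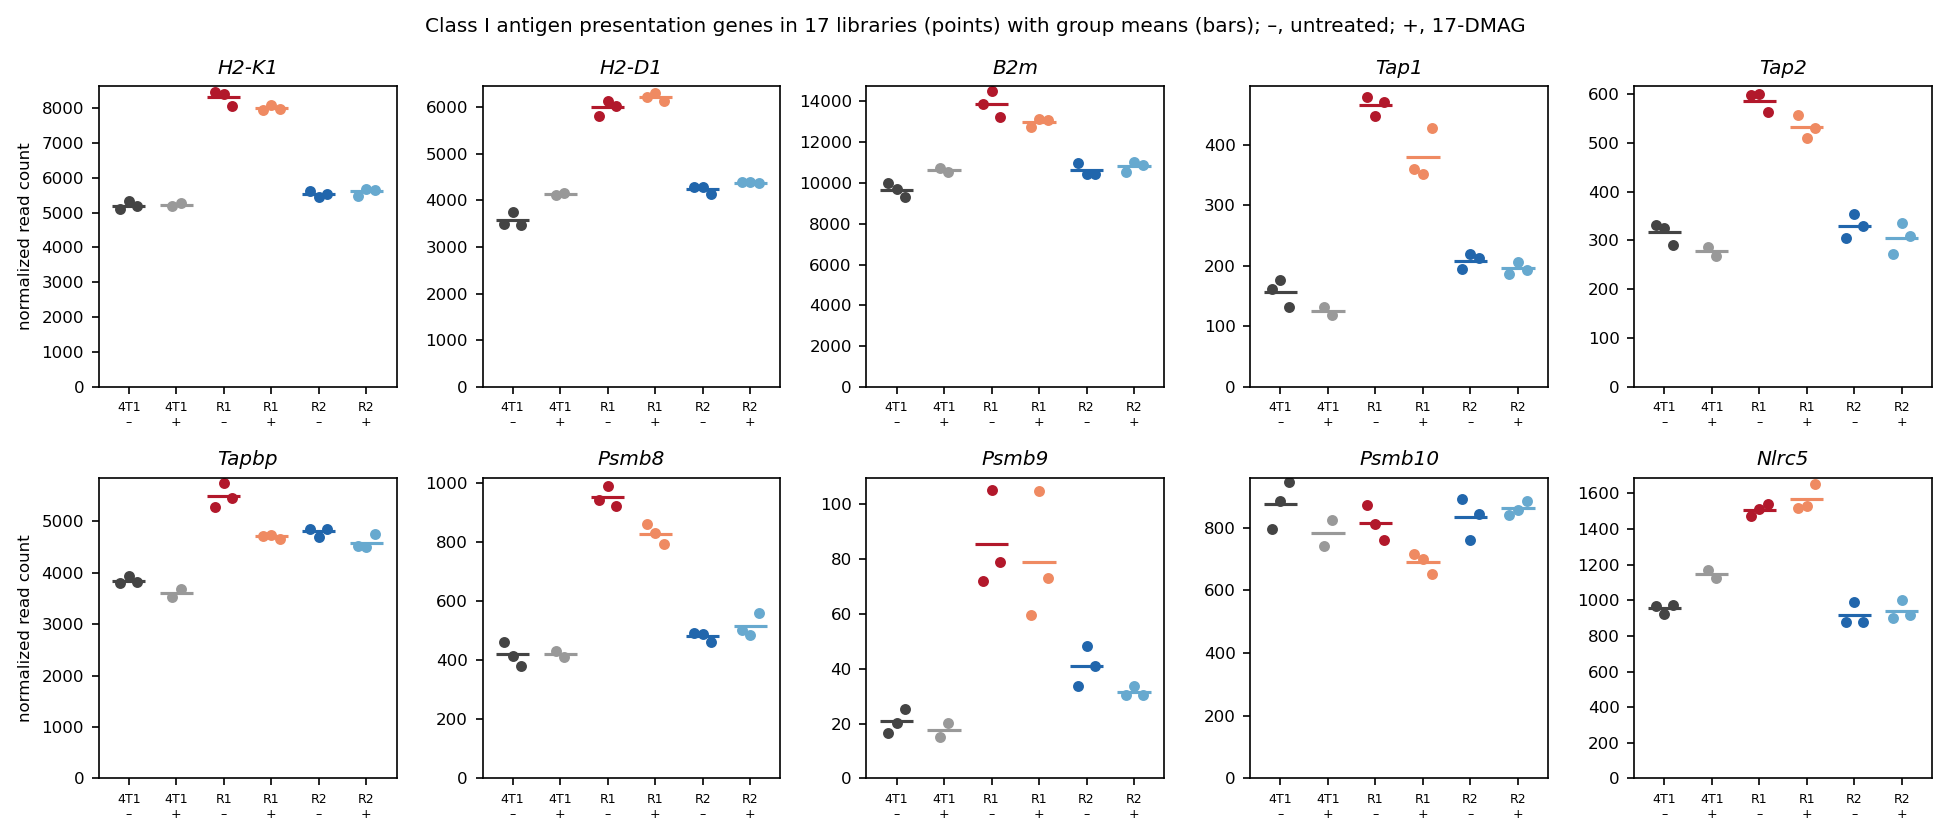
Normalized read counts (y axis, from 0) of the 10 class I presentation genes in untreated (–) and 17-DMAG-treated (+) 4T1, 4T1R1 (R1) and 4T1R2 (R2). Each point is 1 library and each bar a group mean. For 9 genes the untreated 4T1R1 libraries lie above every untreated 4T1 library, as for 27.7% of all genes tested, while those of Psmb10 overlap.

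The heavy chains H2-K1 and H2-D1, which hold the peptide and meet the T cell receptor, were among the abundant members. H2-K1 was at 5096, 5319 and 5182 normalized counts in untreated 4T1, at 8462, 8397 and 8052 in untreated 4T1R1, and at 5623, 5458 and 5536 in untreated 4T1R2. All 4T1R1 libraries stood well above the rest, and those of 4T1R2 lay just above those of 4T1 without overlap. The log2 change of H2-K1 was 0.68 (SE 0.0303, adjusted p = 5.78e-22) in 4T1R1 and 0.092 (SE 0.0309, adjusted p = 0.0115) in 4T1R2. The small H2-K1 change in 4T1R2 was not called without untreated 4T1 replicate 1 (adjusted p = 0.0566) or without untreated 4T1R2 replicate 1 (adjusted p = 0.053).

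H2-D1 was at 3495, 3744 and 3475 in untreated 4T1, at 5807, 6138 and 6031 in untreated 4T1R1, and at 4286, 4289 and 4145 in untreated 4T1R2. The 3 groups did not overlap, in the order 4T1R1, 4T1R2, 4T1. The log2 changes against 4T1 were 0.75 (SE 0.0335) and 0.25 (SE 0.0342), both called. Reads of H2-K1 and H2-D1 are uncertain in identity, since the class I heavy chains are close paralogs, 4T1 carries BALB/c alleles that differ from the reference, and the handling of reads that map to several genes is not given in the sources used here.

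B2m, the light chain that every classical class I molecule needs, was the most abundant of the 10 per kb of exon, at 11240 normalized counts per kb in untreated 4T1 against 1770 for H2-K1 and 1385 for H2-D1. It was at 9982, 9722 and 9291 normalized counts in untreated 4T1, at 13860, 14500 and 13230 in 4T1R1, and at 10970, 10430 and 10450 in 4T1R2. Every library of both resistant populations was above every 4T1 library. The log2 change was 0.52 (SE 0.0313) in 4T1R1 and 0.14 (SE 0.0316) in 4T1R2, both called.

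Tap1 and Tap2 encode the subunits of the peptide pump of the endoplasmic reticulum. Tap1 was at 161.6, 176.3 and 132.6 in untreated 4T1, at 479.4, 447.4 and 471.7 in untreated 4T1R1, and at 194.7, 219.1 and 212.8 in untreated 4T1R2. Tap1 was 2.98-fold higher in 4T1R1 than in 4T1, with no overlap, and the 4T1R2 libraries lay between the other two groups. Its log2 change was 1.58 (SE 0.108, adjusted p = 6.2e-16) in 4T1R1 and 0.41 (SE 0.119, adjusted p = 0.00358) in 4T1R2.

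Tap2 was at 332.5, 325.9 and 290.6 in untreated 4T1, at 597.3, 599.7 and 562.7 in 4T1R1, and at 304, 354.7 and 329.8 in 4T1R2. Only the 4T1R1 libraries stood apart, and those of 4T1 and 4T1R2 overlapped. The log2 change of Tap2 was 0.89 (SE 0.0868) in 4T1R1, called, and 0.05 (SE 0.0935, adjusted p = 0.651) in 4T1R2, not called. Per kb of exon Tap1 was the lower of the pair in each untreated population, at 28.6 against 83.7 normalized counts per kb in 4T1, 85.1 against 155.1 in 4T1R1 and 38.1 against 87.2 in 4T1R2.

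Tapbp encodes tapasin, which bridges the pump and the empty class I molecule. It was at 3799, 3932 and 3813 in untreated 4T1, at 5283, 5741 and 5461 in 4T1R1, and at 4857, 4691 and 4856 in 4T1R2. The groups did not overlap, and of the members this was the one for which 4T1R2 came nearest to 4T1R1, apart from Psmb10. The log2 change was 0.51 (SE 0.0346) in 4T1R1 and 0.32 (SE 0.035) in 4T1R2, both called.

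Psmb8, Psmb9 and Psmb10 encode the catalytic subunits of the immunoproteasome, which replace Psmb5, Psmb6 and Psmb7 of the standard proteasome when a cell is exposed to interferon. Psmb9 was the scarcest member, with raw counts of only 16 to 26 per library in untreated 4T1. It was at 16.6, 20.3 and 25.4 normalized counts in untreated 4T1, at 72.1, 105.3 and 78.9 in 4T1R1, and at 33.6, 48.2 and 40.9 in 4T1R2. The 3 groups did not overlap, and the log2 change was 2.03 (SE 0.276, adjusted p = 4.98e-08) in 4T1R1 and 0.96 (SE 0.306, adjusted p = 0.00796) in 4T1R2.

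Psmb8 was at 462, 415.7 and 381.3 in untreated 4T1, at 943.2, 988.7 and 923 in 4T1R1, and at 492, 490.3 and 460.8 in 4T1R2. The 4T1R1 libraries were 2.27-fold above 4T1 on average, whereas the lowest 4T1R2 library lay just below the highest 4T1 library. The log2 change was 1.18 (SE 0.0736, adjusted p = 2.84e-17) in 4T1R1 and 0.20 (SE 0.0795, adjusted p = 0.0337) in 4T1R2. The call in 4T1R2 was lost without untreated 4T1 replicate 2 (adjusted p = 0.0726) or 3 (0.21), without untreated 4T1R2 replicate 1 (0.0986) or 2 (0.0801), with no filter on low counts (0.054), and in a fit of only these groups (0.0539).

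Psmb10 behaved differently from its partners. It was at 796.5, 885.9 and 945 in untreated 4T1, at 872.1, 812.4 and 758.7 in 4T1R1, and at 891.9, 761.6 and 844.4 in 4T1R2. All 3 groups overlapped, and neither the change in 4T1R1 (log2 −0.11, 95% interval −0.24 to 0.03, adjusted p = 0.205) nor that in 4T1R2 (log2 −0.07, adjusted p = 0.43) was called.

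Nlrc5 encodes the class I transactivator. It was at 965.3, 924.3 and 976.2 in untreated 4T1, at 1473, 1514 and 1541 in 4T1R1, and at 876.6, 991.1 and 879.5 in 4T1R2. The 4T1R1 libraries were clear of all others, and 4T1 and 4T1R2 overlapped. The log2 change was 0.66 (SE 0.0562, adjusted p = 3.82e-13) in 4T1R1 and −0.07 (SE 0.0595, 95% interval −0.18 to 0.05, adjusted p = 0.377) in 4T1R2.

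**Figure D2:**
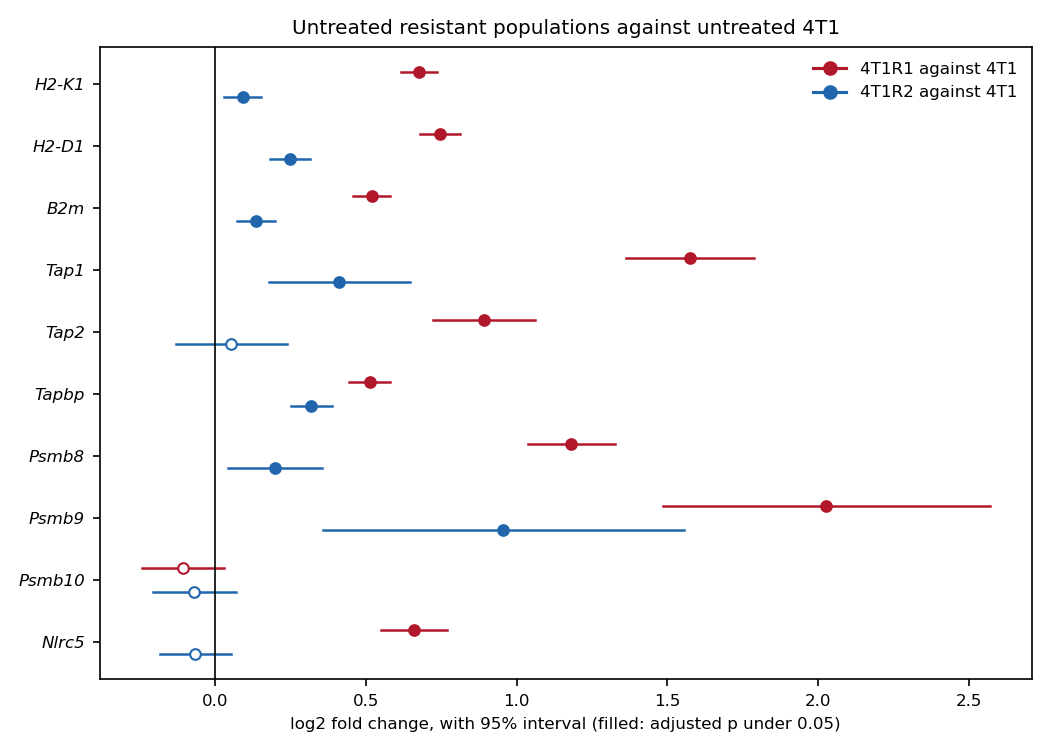
Log2 fold change (x axis) of the 10 genes in untreated 4T1R1 (red) and untreated 4T1R2 (blue) against untreated 4T1, with 95% intervals, n = 3 libraries a group. Filled points passed an adjusted p of 0.05, 9 in 4T1R1 and 7 in 4T1R2, and the 2 comparisons share the 4T1 libraries.

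The resistant populations were then compared with each other. In untreated 4T1R2, 9 of the 10 genes were lower than in untreated 4T1R1 and none was higher, against 19.7% of all genes higher and 19% lower. The log2 change fell by 1.16 for Tap1 (SE 0.106), by 1.07 for Psmb9 (SE 0.254), by 0.98 for Psmb8 (SE 0.0733), by 0.84 for Tap2, by 0.72 for Nlrc5, by 0.58 for H2-K1, by 0.50 for H2-D1, by 0.38 for B2m and by 0.19 for Tapbp (SE 0.0343, adjusted p = 1.37e-05). None of these 9 overlapped between the groups, where 22.9% of all genes were lower in 4T1R2 without overlap, and Psmb10 was not called (log2 0.04, adjusted p = 0.724). No member was higher at an unadjusted p under 0.05 by edgeR, and DESeq2 called 0 higher. The median log2 change of the 10 genes was 0.71 in 4T1R1 and 0.17 in 4T1R2 against 4T1, and −0.65 in 4T1R2 against 4T1R1, where the medians over all genes tested were 0.0075, 0.0068 and −0.0079. Summed, the 10 genes took 24510 to 25470 normalized counts in the untreated 4T1 libraries, 37110 to 39250 in 4T1R1 and 27740 to 28520 in 4T1R2.

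The proteasome genes can be read as pairs of an immune and a standard subunit that fill the same position. The exon lengths used were 3381, 3660 and 1705 bp for Psmb8, Psmb9 and Psmb10. They were 899, 1872 and 3421 bp for Psmb5, Psmb6 and Psmb7. The size of a share depends on these lengths, so the shares are read between groups. As a share of counts per kb of exon of the pair, Psmb8 made up 9.04% ± 1.06 (SD, n = 3) of Psmb8 and Psmb5 in untreated 4T1, 19% ± 0.439 in untreated 4T1R1 and 8.68% ± 0.793 in untreated 4T1R2. The share was higher in every 4T1R1 library than in any other untreated library, and overlapped between 4T1 and 4T1R2. Psmb9 made up 0.419% ± 0.0744, 1.68% ± 0.31 and 0.741% ± 0.157 of Psmb9 and Psmb6 in the same groups, with no overlap between them. Psmb10 made up 25.2% ± 1.02, 26.9% ± 1.29 and 25.2% ± 1.71 of Psmb10 and Psmb7, and these ranges overlapped. Of the standard subunits in 4T1R1, Psmb5 (log2 −0.06, adjusted p = 0.402) and Psmb6 (0.02, adjusted p = 0.697) were not called. Psmb7 was lower there (log2 −0.23, adjusted p = 1.16e-06). In 4T1R2, Psmb5 rose by 0.27 and Psmb6 by 0.17 on the log2 scale, both called, and Psmb7 changed by −0.07 (adjusted p = 0.127).

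**Figure D3:**
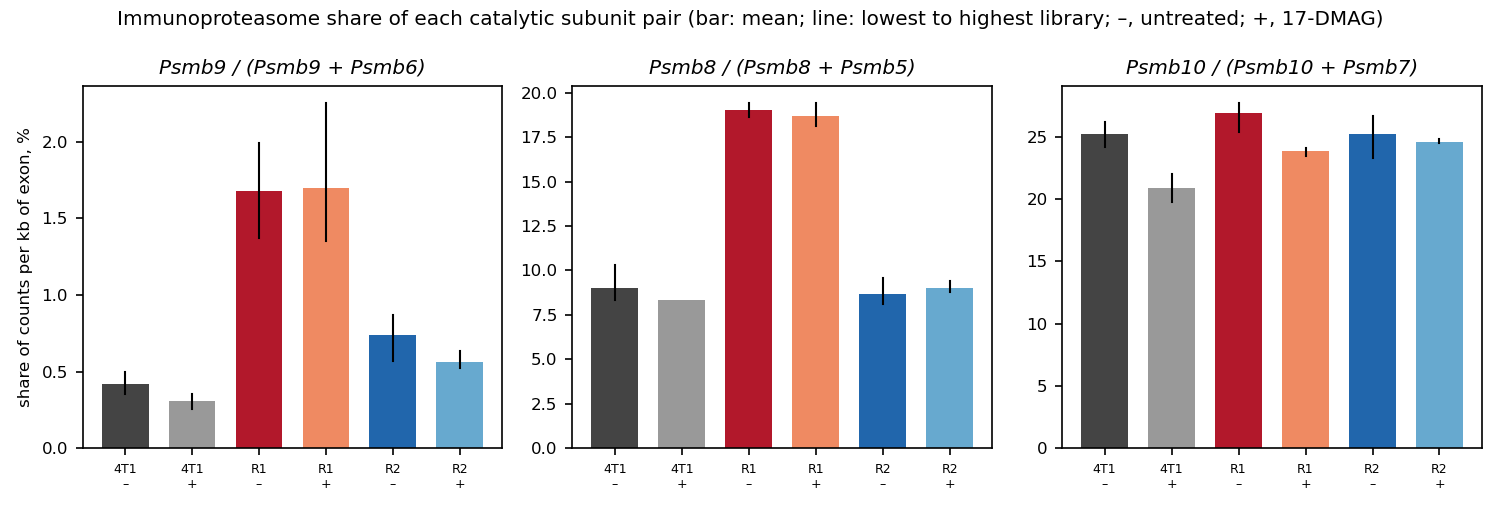
Share (y axis, percent of counts per kb of exon, from 0) of Psmb9, Psmb8 and Psmb10 in the pair each forms with its standard counterpart, in untreated (–) and 17-DMAG-treated (+) 4T1, 4T1R1 (R1) and 4T1R2 (R2). Bars are means and lines run from the lowest to the highest library. The mean Psmb8 share is 19% in untreated 4T1R1 and 9.04% in untreated 4T1, while the group means of Psmb10 lie between 20.9% and 26.9%. Single libraries of Psmb10 run from 19.8% in treated 4T1 to 27.7% in untreated 4T1R1.

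Other genes of the pathway were read from lists of class I relatives, loading factors, proteasome genes, peptidases and regulators. Of all genes tested, 25.2% were higher and 27.5% lower in untreated 4T1R1, and 25.6% higher and 26.9% lower in untreated 4T1R2. Of 26 other class I heavy chains and class I-like genes, 16 were tested. Of these, 12 were higher and none lower in untreated 4T1R1, and 7 were higher and none lower in untreated 4T1R2, with medians of 0.77 and 0.25 on the log2 scale. H2-Q4 (log2 1.10 in 4T1R1 and 0.33 in 4T1R2), H2-K2 (0.93 and 0.14, the latter not called) and H2-Q5 (1.05 and 0.20, the latter not called) were lower in 4T1R2 than in 4T1R1, as most of the 10 members were. H2-T23, which encodes the nonclassical molecule Qa-1 that presents leader peptides of other class I chains, was at 580.1, 1270 and 1265 normalized counts in untreated 4T1, 4T1R1 and 4T1R2. It was higher in both (log2 1.13 and 1.12), and the difference between 4T1R2 and 4T1R1 was −0.0048 (95% interval −0.11 to 0.10, adjusted p = 0.957). For H2-T24, higher in both, the difference was 0.22 (95% interval −0.03 to 0.47, adjusted p = 0.172). Mr1, which presents microbial vitamin B metabolites, had the largest change of the list in 4T1R1 (log2 1.55) and was also higher in 4T1R2 (0.88). H2-Q6, H2-Q7, H2-Q8, H2-Q9 and H2-T9 were listed at 0 in the untreated groups, and they are close copies of genes with counts.

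The counts in this paragraph stand beside shares of all genes tested of 25.2% higher and 27.5% lower in 4T1R1, and 25.6% and 26.9% in 4T1R2. Of the 8 loading and trimming genes, 1 was higher and 4 lower in 4T1R1, and 3 were higher and 2 lower in 4T1R2. Tapbpl, a relative of tapasin that edits peptides, rose by 0.78 in 4T1R1 and by 0.72 in 4T1R2 on the log2 scale, and its difference between them was −0.07 (95% interval −0.27 to 0.13, adjusted p = 0.643). The general chaperones of the loading complex did not share the pattern of the 10 members: Calr (calreticulin) changed by −0.09 in 4T1R1 and by 0.31 in 4T1R2, both called, and Pdia3 (ERp57) by −0.04 (adjusted p = 0.27) and 0.20 (called). Erap1, which trims peptides in the endoplasmic reticulum, changed by 0.02 (adjusted p = 0.722) in 4T1R1 and by −0.29 in 4T1R2 (called). Of the 8 proteasome genes, 1 was higher and 3 lower in 4T1R1, and 4 were higher and 2 lower in 4T1R2. Psme2, a subunit of the interferon-inducible PA28 activator, rose by 0.24 and 0.31, and its partner Psme1 changed by 0.01 (adjusted p = 0.898) in 4T1R1 and rose by 0.22 in 4T1R2. Pomp, which assembles proteasomes, fell by 0.65 and 0.47. Of 6 cytosolic peptidases, 1 was higher and 3 lower in 4T1R1, with Lap3 down by 0.36, and 1 was higher and 2 lower in 4T1R2, with Thop1 up by 0.45.

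Of the 22 regulators, 11 were higher and 4 lower in untreated 4T1R1, and 9 were higher and 6 lower in untreated 4T1R2. Over all genes tested, 25.2% were higher and 27.5% lower in 4T1R1, and 25.6% higher and 26.9% lower in 4T1R2. Irf1, an interferon-induced activator of class I genes, was at 902.9, 1600 and 1389 normalized counts in untreated 4T1, 4T1R1 and 4T1R2 (log2 0.83 and 0.62, both called). Ifnar2, a chain of the type I interferon receptor, rose by 1.12 and 1.00, and Stat2, which works with it, by 0.69 and 0.94. Irf9, which binds Stat2, rose by 0.63 and 0.90. Between the resistant populations, Irf1 (log2 −0.20) was lower in 4T1R2, as was Nlrc5 (−0.72), while Irf9 (0.26) and Stat2 (0.25) were higher in 4T1R2, all called. Rfx5, which binds the X box with Nlrc5, rose by 0.43 and 0.35. The listed factors of CCAAT and TGACG did not all rise. In untreated 4T1, 4T1R1 and 4T1R2, Nfya had means of 2993, 2353 and 2125 normalized counts. Creb1 had means of 3803, 3124 and 2904 in the same groups. Nfyb was at 905.1, 837.4 and 912, and Nfyc at 1082, 1117 and 1081. Ciita, the class II transactivator, had a mean of 17.3 normalized counts in untreated 4T1, and changed by −0.67 (adjusted p = 0.237) in 4T1R1 and by −1.41 (adjusted p = 0.023) in 4T1R2.

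**Figure D4:**
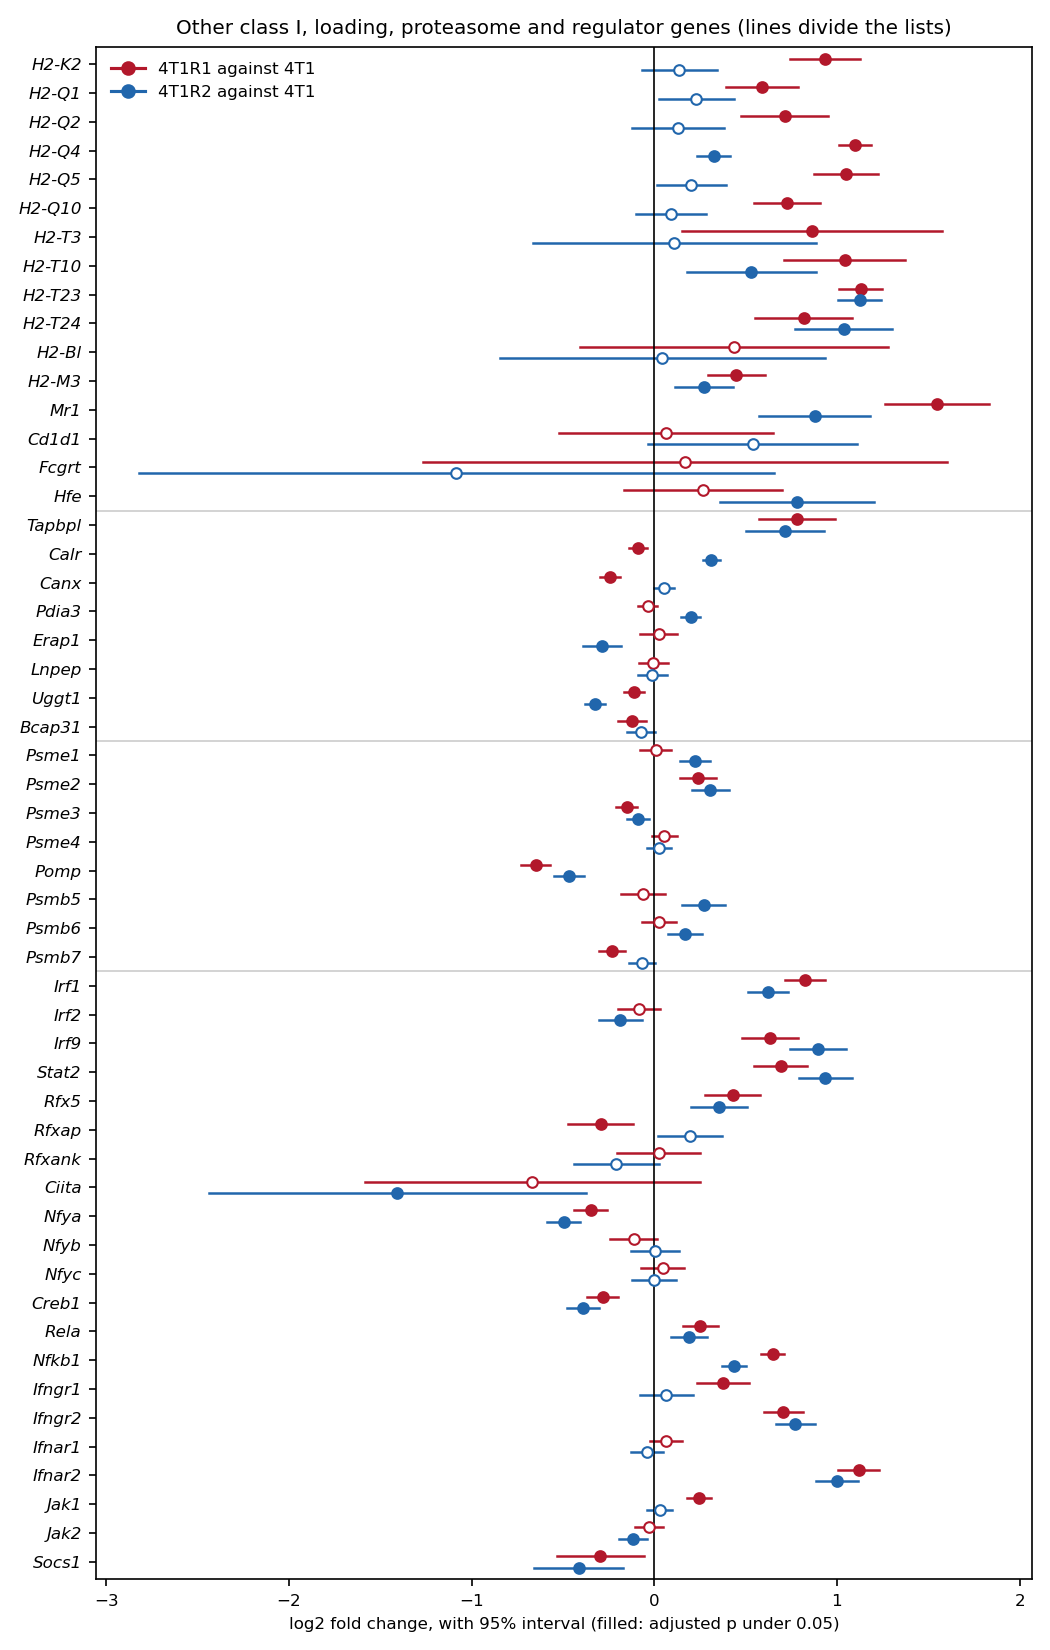
Log2 fold change (x axis, with 95% intervals) of genes of 4 lists in untreated 4T1R1 (red) and 4T1R2 (blue) against untreated 4T1, n = 3 libraries a group. From the top the lists are class I relatives, loading and trimming, proteasome, and regulators, and filled points passed an adjusted p of 0.05. H2-T23, Tapbpl and Ifnar2 have intervals that overlap between the populations, while H2-Q4 and H2-K2 do not.

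Class II genes and interferons themselves were barely counted. Of 11 class II genes in the table, only Cd74, the invariant chain, and H2-DMa passed the filter, and the others had means of at most 1.3 normalized counts in the untreated groups. Cd74 was at 249.8, 430.4 and 205.9 normalized counts in untreated 4T1, 4T1R1 and 4T1R2, which was higher in 4T1R1 (log2 0.78) and lower in 4T1R2 (−0.28), both called. H2-DMa rose by 0.60 and 0.80. Of 10 interferon genes only Ifnk passed the filter, at 12.8, 14.7 and 8.1 normalized counts, and no change of it was called. Ifng, Ifnl2 and Ifnl3 were at 0 in the untreated groups.

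The genes whose profile over the 17 libraries was most like the mean profile of the 10 members were H2-Q4 (Pearson r 0.994), H2-Q5 (0.988), Cntnap1 (0.976), Tulp3 (0.976) and H2-Q10 (0.970), out of 10321 genes averaging 100 or more normalized counts. These values describe libraries that fall into population groups, and carry no test. Cntnap1 had means of 809.7, 1354 and 895.8 normalized counts in untreated 4T1, 4T1R1 and 4T1R2, and Tulp3 had 1599, 2383 and 1835. The class I relatives may also share reads with the members.

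The last comparisons asked how each population responded to 17-DMAG. No member changed by 2-fold in any population. In 4T1, 3 of the 10 genes were higher after 17-DMAG (H2-D1, B2m and Nlrc5) and none was lower, against 18.4% of all genes higher and 17.9% lower. In 4T1R1 none was higher and 5 were lower (B2m, Tap1, Tapbp, Psmb8 and Psmb10), against 13.9% higher and 14.3% lower. In 4T1R2 none was called in either direction by edgeR, against 6.18% higher and 4.35% lower. At an unadjusted p under 0.05, 3 members were lower in 4T1 (Tap1, Tapbp and Psmb10), none was higher in 4T1R1, and none moved either way in 4T1R2. DESeq2 called 1 lower in 4T1 (Tapbp, log2 −0.10, adjusted p = 0.0476), and 0 where edgeR did in the other 2 populations.

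Nlrc5 had the largest called rise in 4T1. It was at 965.3, 924.3 and 976.2 in untreated cells and at 1171 and 1124 in the 2 treated samples, and the groups did not overlap (log2 0.26, SE 0.0635, adjusted p = 0.000946). H2-D1 was at 4121 and 4166 in treated 4T1, above the 3475 to 3744 of untreated cells (log2 0.22, SE 0.0377). B2m was at 10740 and 10560 in treated 4T1, above the 9291 to 9982 of untreated cells (log2 0.14, SE 0.035). H2-K1 was at 5184 and 5265 in treated 4T1, inside the range of untreated cells (log2 0.01, 95% interval −0.06 to 0.07). Tap1 was at 131.8 and 118.3 in treated 4T1, below all 3 untreated libraries, but was not called (log2 −0.33, SE 0.14, adjusted p = 0.0621). It was called without untreated 4T1 replicate 3 (adjusted p = 0.0173), without treated 4T1 replicate 2 (0.0464), and with the 18 libraries kept separate (0.0168).

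In 4T1R1, Tapbp was at 5283, 5741 and 5461 untreated and at 4712, 4738 and 4665 after 17-DMAG, with no overlap (log2 −0.22, SE 0.0342, adjusted p = 2.47e-06). Tap1 fell from 479.4, 447.4 and 471.7 to 360.5, 352.3 and 428.3 (log2 −0.30, SE 0.0975, adjusted p = 0.0197). Psmb10 fell from 872.1, 812.4 and 758.7 to 714.2, 698.3 and 652.9 (log2 −0.24, SE 0.0713, adjusted p = 0.00923). Treated libraries lay below untreated ones for 6 members, the 5 called and Tap2 (log2 −0.14, adjusted p = 0.214), and for 20.1% of all genes tested. Psmb8 (log2 −0.20, adjusted p = 0.0267) and B2m (log2 −0.09, adjusted p = 0.0191) changed less. Only Tapbp was called whichever library was left out. The count of 5 became 2 without untreated 4T1R1 replicate 1 (adjusted p of 0.0658 for Tap1, 0.0501 for Psmb8 and 0.0756 for Psmb10), 4 without untreated replicate 3, and 3 without untreated replicate 2 or any 1 of the treated replicates.

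**Figure D5:**
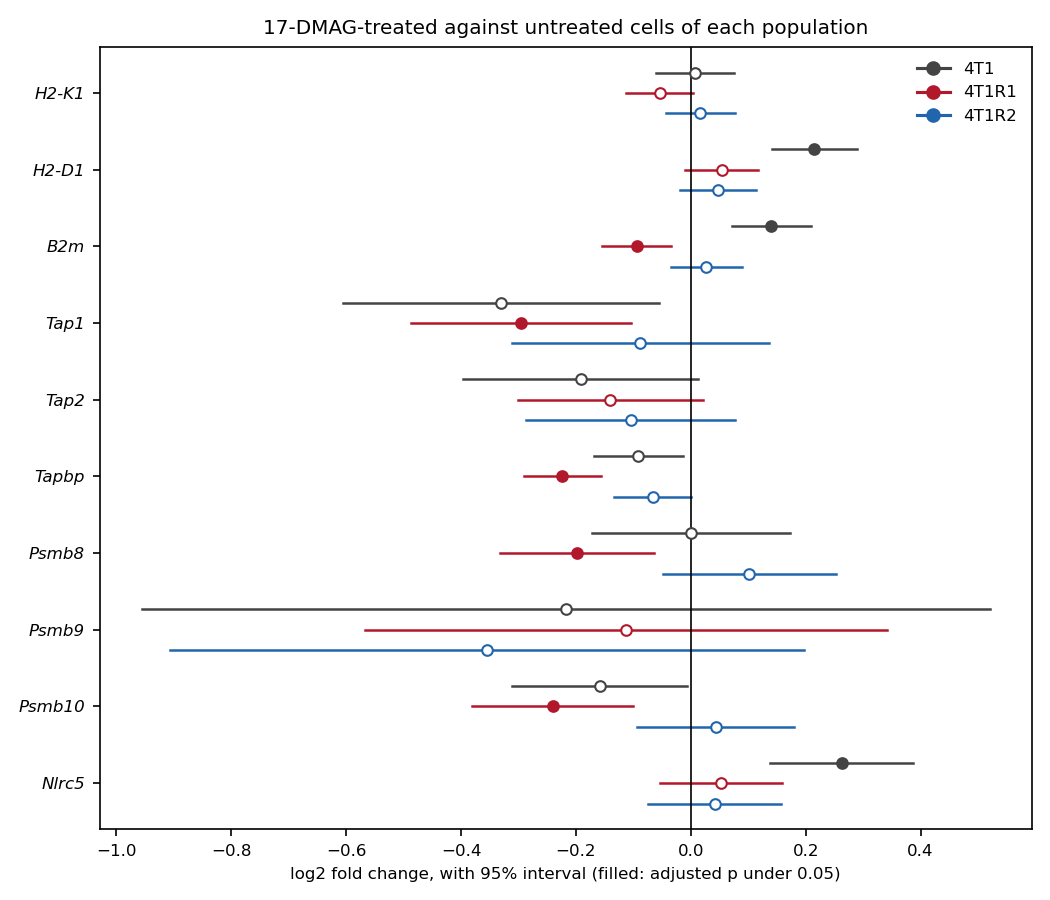
Log2 fold change (x axis, with 95% intervals) of the 10 genes after 17-DMAG in 4T1 (gray, n = 2 treated and 3 untreated), 4T1R1 (red, n = 3 and 3) and 4T1R2 (blue, n = 3 and 3). Filled points passed an adjusted p of 0.05, which were 3 rises in 4T1, 5 falls in 4T1R1 and none in 4T1R2.

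The responses were tested against each other. Of the 10 genes, the log2 response of B2m (0.14 in 4T1 and −0.09 in 4T1R1, opposite in sign) and of H2-D1 (0.22 and 0.05) was lower in 4T1R1 than in 4T1, and none was higher (0 also at an unadjusted p under 0.05 by edgeR, and 0 by DESeq2), against 9.16% of all genes with a higher and 9.08% with a lower response. The difference was −0.23 for B2m (log2, SE 0.0467, adjusted p = 0.000255) and −0.16 for H2-D1 (SE 0.0498, adjusted p = 0.018). The response of H2-D1 was also lower in 4T1R2 than in 4T1 and that of no member was higher, by edgeR, at an unadjusted p under 0.05 or by DESeq2 (H2-D1 log2 −0.17, SE 0.0506, adjusted p = 0.0158), against 9.62% of all genes with a higher and 8.16% with a lower response. For Nlrc5 the difference was −0.21 in 4T1R1 (adjusted p = 0.0766) and −0.22 in 4T1R2 (adjusted p = 0.0731), neither called. Both H2-D1 differences were lost without untreated 4T1 replicate 3 (adjusted p = 0.0628 and 0.0554) or without treated 4T1 replicate 3 (0.0595 and 0.0609).

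These responses depend on the scaling. Scaled by total counts alone, the median log2 change of all genes became −0.11 in 4T1 and the median difference between 4T1R1 and 4T1 became 0.15, and the higher genes made up 21.6% of all calls in 4T1, 64.2% in 4T1R1 and 24.2% in 4T1R2 against 50.7%, 49.2% and 58.7% with TMM. Of the calls on differences in response, 89.4% (4T1R1) and 76.8% (4T1R2) were then higher, against 50.2% and 54.1%. With that scaling 1 member was higher and 5 lower in 4T1, and no difference in response was called. H2-D1 was higher in treated 4T1, and Tapbp lower in treated 4T1R1, under every scaling.

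The lists of other genes were read against the same shares of all genes called after the drug, 18.4% higher and 17.9% lower in 4T1, 13.9% and 14.3% in 4T1R1, and 6.18% and 4.35% in 4T1R2. Of the 16 class I relatives, 1 was higher in 4T1 (H2-T10, log2 0.63), 2 were lower in 4T1R1 (H2-Q4, −0.21, and H2-Q5, −0.26) and none was called in 4T1R2. Of the 22 regulators, 5 were higher and 7 lower in 4T1, 3 were higher and 6 lower in 4T1R1, and 1 was higher and 2 lower in 4T1R2. Ifngr2, a chain of the interferon gamma receptor, fell by 0.63 in 4T1 and by 0.35 in 4T1R1. Its means were 934.8, 1524 and 1595 normalized counts in untreated 4T1, 4T1R1 and 4T1R2, and 600.9, 1196 and 1484 after 17-DMAG. Rela, a subunit of NF-κB, fell by 0.47, 0.29 and 0.15 in 4T1, 4T1R1 and 4T1R2. Irf1 fell by 0.43 in 4T1 and by 0.21 in 4T1R1, and changed by −0.14 (adjusted p = 0.0892) in 4T1R2. The standard subunits Psmb6 and Psmb7 rose by 0.23 and 0.19 in 4T1, where Psmb8 was not called (log2 0.0006, 95% interval −0.17 to 0.17).

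The other genes of the loading complex and the proteasome were followed through the same comparisons. Between the untreated resistant populations, Calr (log2 0.40), Psmb5 (0.33), Pdia3 (0.24), Psme1 (0.22), Psmb7 (0.16) and Psmb6 (0.14) were higher in 4T1R2 than in 4T1R1 and Erap1 (−0.31) was lower, all called, so that the standard subunits ran opposite to Psmb8 and Psmb9 there. Psme2 (0.07), Rfx5 (−0.07) and Ciita (−0.74) were not called between them. After 17-DMAG, Calr fell by 0.19 in 4T1 and by 0.24 in 4T1R1 and was not called in 4T1R2 (log2 0.02). Pdia3 rose by 0.12 in 4T1R2 and was not called in 4T1 (0.07) or 4T1R1 (0.03). Psme2 fell by 0.22, Psmb5 by 0.17 and Psmb6 by 0.13 in 4T1R1, all called. Psme1, Erap1, Rfx5 and Ciita were called in no population after the drug. Responses were lower in 4T1R1 than in 4T1 for Psmb6 (difference −0.36), Psme2 (−0.32), Psmb5 (−0.29) and Psmb7 (−0.20). Against 4T1, the response in 4T1R2 was lower for Psmb6 (−0.22) and higher for Irf1 (0.28), Rela (0.32) and Calr (0.21).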

How the data were processed

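Total RNA of untreated and 17-DMAG-treated 4T1, 4T1R1 and 4T1R2 cells was depleted of rRNA and sequenced from stranded libraries. The authors' processing notes name bcl2fastq 2.20, STAR, and featureCounts in Subread 1.6.2, with the build mm10 (GRCm38). The deposited values are raw counts per gene, with totals from 23354461 to 55094630 per library. Among counts from 1 to 12 only, 65.6% to 70.8% per library were even numbers, and the reason was not tested. The strand setting and the handling of reads that map to several genes are not given in the sources used here. Rn45s took 9.54% to 15.6% of the counts.

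Counts were fitted with edgeR 4.0.16 (quasi-likelihood test, R 4.3.3) over 17 libraries in 6 groups, after filterByExpr and TMM scaling, with Benjamini-Hochberg adjustment over 13507 genes and a threshold of 0.05. Normalized counts refer to a mean effective library size of 30965291. Replicates 1 and 2 of treated 4T1 were averaged, and the script was tested on simulated data. Genes were placed on GENCODE vM21, and lengths are the union of exons. The members and gene lists were chosen with earlier results of these data known. Beside the 10 members, the genes named were set genes (Psmb5 to Psmb7, Psme1, Psme2, Erap1, Calr, Pdia3, Irf1, Rfx5 and Ciita), up to 3 called genes per list and comparison with the largest change and a mean of at least 100 normalized counts, and the 5 most alike. H2-T10, Ifnk, Nfya, Nfyb, Nfyc, Creb1 and the genes listed at 0 were named after their values were seen. Alternatives were RLE scaling, total counts only, no filter, at least 10 counts in every library, 18 separate libraries, a replicate block, only the groups compared, DESeq2 1.42.0, a 2-fold threshold and leaving out each library. Same-numbered libraries did not deviate together (45 pairs, r from −0.195 to 0.178, 2 pairs over 0.1), so numbers were not taken as pairs. Figures were drawn with matplotlib 3.10.9. Some genes of the lists are not reported here.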

Additional observations from a re-analysis of the deposited data

Results flagged for a closer look

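The response of B2m to 17-DMAG differed between 4T1R1 and 4T1 by −0.2343 on the log2 scale, with 0.14 in 4T1 and −0.09 in 4T1R1, by a test of the difference itself. The response of H2-D1 differed by −0.1616 between 4T1R1 and 4T1 and by −0.1679 between 4T1R2 and 4T1, with a response of 0.22 in 4T1 (n = 2 treated samples) and of 0.05 in each resistant population, by the same kind of test. Both comparisons use the same 4T1 libraries. None of the 3 differences was called with scaling by total counts alone, where the adjusted p of B2m was 0.212.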

How the results depend on the processing

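The counts in untreated cells were 9 higher in 4T1R1 than in 4T1, and 9 lower in 4T1R2 than in 4T1R1, under every alternative but the 2-fold threshold, which left 3 and 2. It left 0 of the 7 in 4T1R2 against 4T1, 0 of the 3 rises in 4T1, 0 of the 5 falls in 4T1R1, and 0 of both sets of differences in response. Scaling by total counts alone gave 1 rise and 5 falls in 4T1, 3 falls in 4T1R1, 1 fall in 4T1R2, and 0 and 0 differences. The falls in 4T1 came to 1 with at least 10 counts in every library, with 18 separate libraries, with the replicate block and with DESeq2. Leaving out 1 library gave 5 to 7 higher members in 4T1R2 against 4T1, 0 to 1 falls in 4T1, 2 to 4 falls in 4T1R1, 1 to 3 lower responses in 4T1R1 than in 4T1, and 0 to 2 in 4T1R2. Calls gained were Psmb10 in 4T1 without untreated 4T1 replicate 1 (adjusted p = 0.0302), the 4T1R1 differences of Tapbp without untreated 4T1R1 replicate 1 (0.033) and Nlrc5 without treated 4T1R1 replicate 3 (0.0438), and the 4T1R2 differences of B2m without untreated 4T1 replicate 1 (0.044) and Nlrc5 without treated 4T1R2 replicate 2 (0.0344). Without treated 4T1 replicate 3, that group held 1 averaged sample, assumed to vary like the other groups.

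With the replicate block (18 separate libraries), Tap1 was called in 4T1 (log2 −0.37, adjusted p = 0.0185). The response of Tapbp was lower in 4T1R1 than in 4T1 (log2 −0.14, adjusted p = 0.0359), so that 3 differences were called there. No other count of members moved with the block. Both calls also appeared with 18 separate libraries and no block, for Tap1 (log2 −0.36, adjusted p = 0.0168) and Tapbp (log2 −0.14, adjusted p = 0.0289).

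Of 1240 values of single members under the alternatives, 1152 kept direction and side of the threshold, 31 lost the call, 18 gained it and 39 changed sign, and the cause was not tested. The response of Psmb8 in 4T1 (0.0006) was −0.00423 with RLE scaling, −0.115 with total counts, −0.00794 with at least 10 counts, −0.024 with 18 separate libraries, −0.0247 with the replicate block, −0.000501 in the groups compared alone and −0.00445 with DESeq2. That of H2-K1 in 4T1 was −0.109 with total counts (adjusted p = 0.0181) and −0.0011 with at least 10 counts. Total counts also turned the responses in 4T1R2 of H2-K1 (−0.029), B2m (−0.019), Psmb10 (−0.0025) and Nlrc5 (−0.0048), and the differences between 4T1R1 and 4T1 of H2-K1 (0.088), Tapbp (0.018) and Psmb10 (0.068).

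Signs that turned on leaving out 1 library all belonged to uncalled values. The ranges were −0.0658 to 0.0753 for Psmb8 and −0.0068 to 0.024 for H2-K1 in the response of 4T1, −0.368 to 0.0622 for Psmb9 in that of 4T1R1, and −0.0138 to 0.0983 for Psmb10 and −0.0070 to 0.0983 for Nlrc5 in that of 4T1R2. They were −0.0043 to 0.114 for Tap2 in 4T1R2 against 4T1 and −0.018 to 0.0943 for Psmb10 in 4T1R2 against 4T1R1. For differences in response they were −0.0576 to 0.145 for Tap1 and −0.15 to 0.28 for Psmb9 in 4T1R1, and −0.0074 to 0.0263 for H2-K1, −0.00022 to 0.0373 for Tapbp and −0.313 to 0.000084 for Psmb9 in 4T1R2. Psmb9 had few counts, and its 95% interval in the response of 4T1R2 ran from −0.91 to 0.20.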

Other observations

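The neighbours of the members on chromosome 17 were counted as genes of the table whose start lay within 250 kb of that of Tap1, H2-K1 or H2-D1. Leaving out the members, 47 of 79 such genes were tested. In untreated 4T1R1, 20 were higher and 8 lower than in 4T1 (median log2 0.16), and in untreated 4T1R2, 18 were higher and 4 lower (median 0.13). After 17-DMAG, none of the 47 was called higher by edgeR and 18 were lower in 4T1R1 (median −0.13), while 3 were higher and 10 lower in 4T1 and 1 was higher and 2 lower in 4T1R2. Of all genes tested, 25.2% were higher and 27.5% lower in untreated 4T1R1, 25.6% and 26.9% in untreated 4T1R2, and after the drug 13.9% and 14.3% in 4T1R1, 18.4% and 17.9% in 4T1 and 6.18% and 4.35% in 4T1R2. Several class I relatives named above are among these neighbours.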
